A study of Mus musculus with 8 samples.

Results

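The genes described here are 6 markers of neural progenitor cells, Nes, Fabp7, Zfp521, Msi1, Msi2 and Sox9, out of 21887 protein-coding mouse genes. They were listed by name, and every deposited peak that touched the gene or the 20 kb on either side of it was taken. All 6 genes were found in the RefSeq gene table. Chromatin immunoprecipitation followed by sequencing (ChIP-seq) had been used to map acetylated histone H3 (H3ac) on days 2, 4 and 6 of differentiation, and the deacetylase HDAC1 on day 2. All cells derived from mouse embryonic stem cells of strain 129/Ola, plated on gelatin and left to differentiate in N2B27, a serum-free medium in which many of them become neural. H3ac was precipitated with a Millipore antibody. HDAC1 carried a 3 FLAG tag and was precipitated with a Sigma antibody, and the sources used here do not say how the tagged protein was expressed. For every target and day there was 1 library of precipitated DNA with 1 input library beside it, so no difference below has a replicate check and no test was possible.

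Histone acetyltransferases place acetyl groups on the tails of histone H3 at active promoters and enhancers, and class I deacetylases such as HDAC1 remove them. Neural progenitors are the dividing cells of the neural tube that give rise to neurons and glia. Nes encodes nestin, an intermediate filament protein, and Fabp7 encodes the brain lipid-binding protein of radial glia. Zfp521 encodes a nuclear zinc finger protein that promotes the entry of mouse embryonic stem cells into the neural lineage. Msi1 and Msi2 encode the Musashi RNA-binding proteins, which hold back translation of target mRNAs such as Numb. Sox9 encodes a SoxE transcription factor of neural stem cells, glia, neural crest and cartilage.

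For H3ac, the day 2, 4 and 6 lists were 17368, 12945 and 5553 peaks long, and the HDAC1 list 5286. Their median widths were 591, 792 and 1898 bp for H3ac and 311 bp for HDAC1. The score of a peak is the authors' own, starts at 50 in every list, and has no stated scale. It is used here to rank peaks within a list, as a percentile where 100% is the highest, and scores or ranks of different days show no change between days. Read depth is unknown. A gene with no listed peak may still be acetylated below the authors' threshold.

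Among the 6 genes, those with an H3ac peak on days 2, 4 and 6 numbered 3, 6 and 5. In the same windows 59.6%, 55.6% and 35.8% of all protein-coding genes had an H3ac peak. HDAC1 peaks were listed for 3 of the 6 genes, against 27.1% of all genes. Nes, Msi1 and Msi2 had a peak in every list, a pattern shared by 13.5% of protein-coding genes. Fabp7 and Zfp521 had H3ac on days 4 and 6 only and no HDAC1 peak, which was the pattern of 1.15% of genes. Sox9 had H3ac on day 4 only and no HDAC1 peak, as did 3.03% of genes. These counts include peaks in the flanks that lie at neighbouring genes, which matters most for Nes on day 6 and for HDAC1. Counting only peaks inside or nearest to a member, 1 of the 6 genes had HDAC1 and Nes had no day 6 H3ac. Msi2 was then the member with a peak in every list. No share over all genes was computed for that count. In bulk chromatin, acetylation in fewer cells and weaker acetylation in each cell cannot be told apart.

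The promoter sequences of 3 members show the DNA on which the peaks at their starts lay, or which they flanked. RefSeq's promoter table (build GRCm38.p6, the coordinates of mm10) matched Nes, Fabp7 and Msi2 and no other member. Shown are the 250 bases before the gene start, 5′ to 3′ on the gene's strand. They lie at chr3:87970843-87971092 on the plus strand for Nes, at chr10:57784673-57784922 on the plus strand for Fabp7, and at chr11:88718278-88718527 on the minus strand for Msi2, which is the first of 3 starts listed for that gene. Capitals mark every match to the GC box GGGCGG, the CCAAT box or the E-box CACGTG on either strand.
Nes: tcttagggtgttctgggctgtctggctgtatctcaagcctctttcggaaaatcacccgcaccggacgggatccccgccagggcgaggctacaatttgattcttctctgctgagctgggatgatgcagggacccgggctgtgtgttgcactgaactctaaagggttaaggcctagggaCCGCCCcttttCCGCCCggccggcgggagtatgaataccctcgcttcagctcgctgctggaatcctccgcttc
Fabp7: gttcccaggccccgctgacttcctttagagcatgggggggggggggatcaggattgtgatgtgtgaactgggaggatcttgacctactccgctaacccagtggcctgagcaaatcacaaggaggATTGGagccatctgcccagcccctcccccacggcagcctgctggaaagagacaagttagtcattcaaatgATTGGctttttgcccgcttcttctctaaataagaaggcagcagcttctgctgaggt
Msi2: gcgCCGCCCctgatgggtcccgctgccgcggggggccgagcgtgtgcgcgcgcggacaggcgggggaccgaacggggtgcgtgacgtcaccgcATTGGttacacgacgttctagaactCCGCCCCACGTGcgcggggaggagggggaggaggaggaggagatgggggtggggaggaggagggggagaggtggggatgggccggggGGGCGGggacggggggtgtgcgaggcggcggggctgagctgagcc

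The promoters differed in base composition. Over 17492 genes with a promoter in the table, the median was 10 CpG dinucleotides in these 250 bases and a GC content of 55.2%. Msi2 had 29 CpGs and 75.6% GC, Nes had 15 CpGs and 58.8% GC, and Fabp7 had 4 CpGs and 54.8% GC. Fewer CpGs than in Msi2 were found in 91.9% of the promoters, fewer than in Nes in 63.3%, and fewer than in Fabp7 in 29.7%. GGGCGG matched 2 times in Nes, 3 times in Msi2 and not in Fabp7, and 42.7% of all promoters held it. CCAAT matched 2 times in Fabp7, at -126 and -56 from the start, once in Msi2 and not in Nes, against 36.3% of all promoters. CACGTG matched once in Msi2, directly beside a GGGCGG match, against 6.64% of all promoters. TATAAA, the SOX-type motif ATTGTT, the octamer part ATGCAAA and the E-box CAGCTG matched in none of the 3 sequences, against 12.4%, 8.61%, 3.76% and 11.6% of all promoters. A match describes letters in this window and shows no bound factor.

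**Figure D1:**
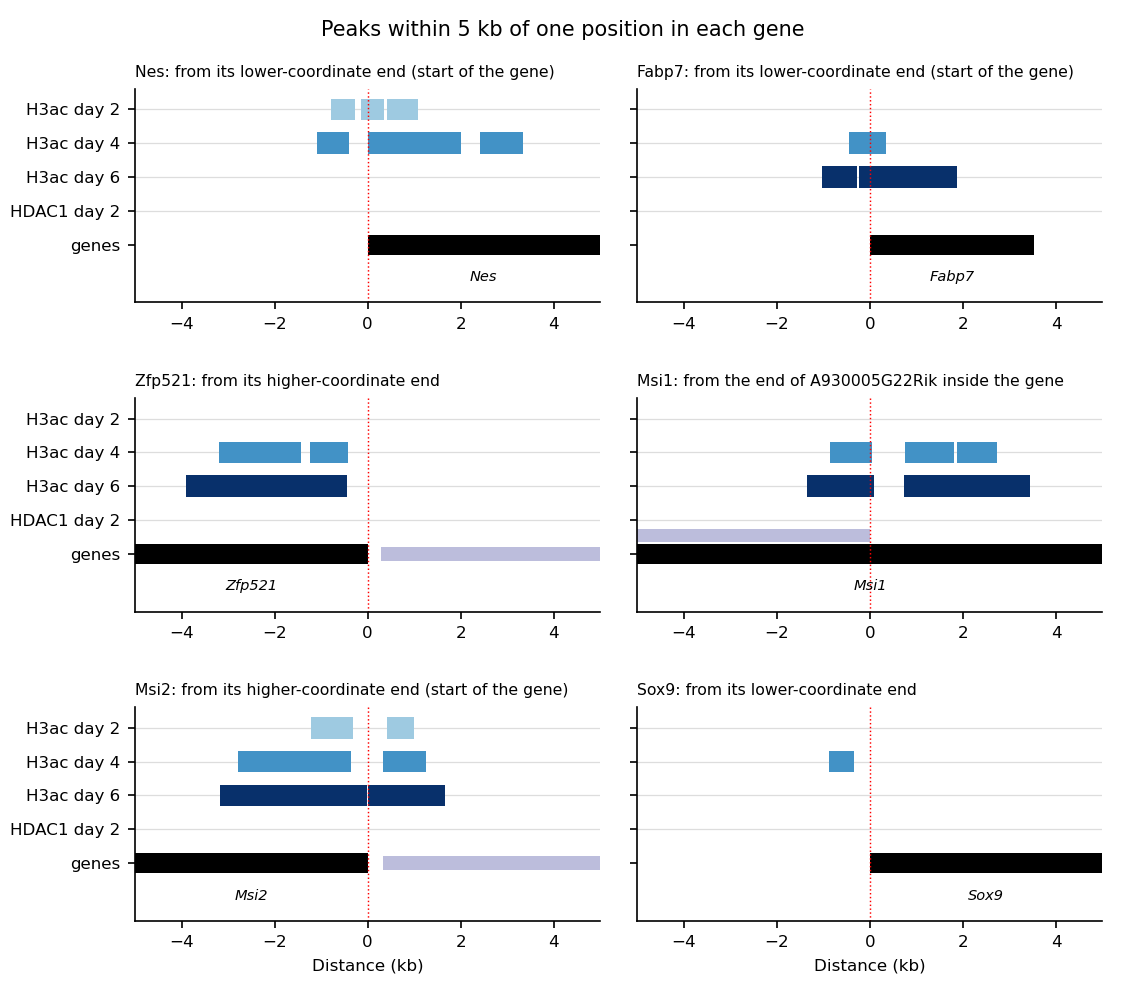
Peaks of the 4 lists (coloured bars, H3ac days 2, 4 and 6 and HDAC1 day 2 from top to bottom) within 5 kb of a chosen position in each gene (red dotted line), as distance in kb. Black bars are the member genes and pale bars long noncoding RNA genes. Nes and Msi2 have bars at or beside the line on day 2, Fabp7 and Zfp521 only on days 4 and 6, Sox9 only on day 4, and no HDAC1 bar falls in any panel.

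Nes lies on chromosome 3 (chr3:87971093-87980451, build mm10, 9.36 kb, plus strand). Its start carried low-ranked H3ac peaks on day 2 and a peak just above the middle of the list on day 4, and the day 6 list had none within the gene. On day 2, 3 peaks stood in a row from 793 bp before to 1083 bp after the start, with scores of 51.62, 54.27 and 72.95, at percentiles 3.8, 12.6 and 43.4 of their list. Gaps of 123 and 70 bp separated them, and together they covered 143 of the 250 promoter bases shown above.

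On day 4, a peak of 1987 bp and score 120.24 (percentile 57.9) began 16 bp inside Nes. A second one inside the gene had score 77.79 and reached 3339 bp from the start. A weak peak of score 50.98 (percentile 2.9) ended 406 bp before the start, so that a gap of 421 bp held the start itself and the promoter shown above lay outside the peaks. The lists do not mark exons or introns, and the peaks were not assigned to the known neural enhancer in the second intron of Nes.

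The flanks of Nes also held H3ac near another gene. Crabp2, which encodes a retinoic acid-binding protein, ends 17721 bp below Nes. A day 4 peak of score 53.30 at the edge of the window was nearer to Crabp2, and the next day 4 peak, of score 223.62, lay 20198 bp from Nes and so just outside. The only day 6 peak counted for Nes had score 215.91 and was 4018 bp wide, of which 914 bp lay inside the window, and it too was nearest to Crabp2. Taking only peaks nearest to Nes, or at least 50% inside its window, left it with no day 6 H3ac peak. The remaining day 4 flank peaks had scores of 62.66, inside the long noncoding RNA gene Gm32518, and 85.20, between Nes and Bcan. The HDAC1 peak of this window (score 73.10, percentile 62.2) lay 12976 bp above Nes, inside Bcan, the gene of the brain proteoglycan brevican. It was 21251 bp from the nearest day 2 H3ac peak.

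Fabp7 lies on chromosome 10 (chr10:57784923-57788450, 3.53 kb, plus strand). It had no H3ac peak on day 2, a weak one at its start on day 4 and 2 peaks there on day 6. The day 4 peak was 797 bp wide, ran from 443 bp before to 353 bp after the start, and scored 53.67, at percentile 8.9 of its list. On day 6, a peak of 2120 bp and score 170.44 (percentile 64.6) ran from 238 bp before to 1881 bp after the start, and a weak one of score 53.55 (percentile 3.9) lay 30 bp upstream of it. All 250 promoter bases shown above lay in the day 4 peak and 238 of them in the day 6 peaks. The nearest day 2 H3ac peak was 252320 bp away, and no HDAC1 peak lay within 121704 bp. The window held no peak nearer to Smpdl3a, the next protein-coding gene. With equal numbers of top-scoring peaks in every list, the day 4 peak dropped out and Fabp7 had H3ac on day 6 only.

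Zfp521 lies on chromosome 18 (chr18:13687013-13972749, 286 kb). Its H3ac lay wholly at the higher-coordinate end, next to the long noncoding RNA gene 6330525I24Rik, which begins 278 bp beyond it. The strongest day 4 peak, with score 335.84, rank 958 of 12945 and percentile 92.6, was 1757 bp wide and ended 1428 bp inside that end. A gap of 196 bp separated it from a second day 4 peak of score 104.22, which ended 423 bp inside the gene end. On day 6, a peak of 3462 bp and score 135.67 (percentile 54.3) overlapped both. No peak was listed in the rest of the gene on any day. The nearest day 2 H3ac peak was 708875 bp away, nearest to Ss18, and the nearest HDAC1 peak 380298 bp. Among the 2429 protein-coding genes that span over 100 kb, 66.0% had a day 2 H3ac peak in the window, and 38.0% had an HDAC1 peak.

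Sox9 lies on chromosome 11 (chr11:112782210-112787757, 5.55 kb) and had the fewest peaks of the 6 genes. Its only peak was on day 4, from 886 to 352 bp below the lower-coordinate end, 535 bp wide, with a score of 56.10 and percentile 14.5. Neither the higher-scoring 50% of the day 4 list nor its 5286 highest-scoring peaks held it. The nearest H3ac peak beyond the window was 397030 bp away on day 2, and the same distance was 894929 bp in the day 4 list and 894642 bp in the day 6 list. For HDAC1 it was 222068 bp. For the 8847 genes with no day 2 H3ac peak in the window, the median distance to the nearest was 143 kb, against 397 kb for Sox9, 709 kb for Zfp521 and 252 kb for Fabp7. Of these genes 25.6% were as far from such a peak as Sox9 or farther, 15.2% as far as Zfp521 and 36.0% as far as Fabp7.

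Msi1 lies on chromosome 5 (chr5:115359059-115455698, 96.6 kb). Inside the gene, H3ac was listed mostly on days 4 and 6, in a cluster around the higher-coordinate end of the long noncoding RNA gene A930005G22Rik. On day 4 this cluster held 3 peaks with scores of 184.32, 288.91 and 112.55, at percentiles 75.7, 89.7 and 54.6. On day 6 it held 2 peaks with scores of 134.49 and 121.29, at percentiles 54.0 and 48.8, and on day 2 it held none. A gap of 704 bp on day 4 and of 643 bp on day 6 stood at the same place, just past the end of A930005G22Rik at position 115429504. Starts of individual Msi1 transcripts were not used here, so the cluster was not matched to a transcript start.

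A further internal peak of Msi1 was present on day 2 (score 59.91) and day 4 (82.53), with overlap, and another on day 4 alone (64.06). The day 2 count for Msi1, 6 peaks, came mostly from its neighbours. Of the 5 flank peaks, those of scores 104.07 and 70.39 lay where Gatc, for a subunit of the mitochondrial glutamyl-tRNA amidotransferase, meets Triap1, for an inhibitor of apoptosis. Those of scores 54.27 and 78.85 lay by Cox6a1, for a cytochrome c oxidase subunit, and that of 52.84 by Pla2g1b, for a phospholipase. Counting only peaks inside or nearest to Msi1 gave 1, 5 and 2 for H3ac on days 2, 4 and 6, and none for HDAC1. The HDAC1 peak of score 96.42 (percentile 80.4) lay at Gatc and Triap1, and that of 51.25 (percentile 6.8) was nearest to Cox6a1, 7871 bp below Msi1. On day 4 the flank peaks scored 258.32, at Gatc and Triap1, and 80.65, by Cox6a1, and on day 6 the flank peak at Gatc and Triap1 scored 107.62.

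Msi2 lies on chromosome 11 (chr11:88339382-88718306, 379 kb, minus strand) and held the highest-ranked peaks of the set. At its start the day 2 list had a peak of 899 bp and score 151.51 (percentile 77.1). The day 4 list had one of 2431 bp and score 547.92 (rank 248, percentile 98.1), and the day 6 list one of 3165 bp and score 581.99 (rank 178 of 5553, percentile 96.8). A peak ranked as high or higher lay in the windows of 2.33% of protein-coding genes on day 4 and of 1.60% on day 6.

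Each day also had a weaker peak beyond the end of Msi2, at the long noncoding RNA gene C030037D09Rik, with scores of 59.19, 134.34 and 104.69 in day order. The gap between the pair held the gene end on every day and measured 733, 696 and 27 bp in the same order. The promoter bases shown above therefore lay outside the peaks on days 2 and 4, while 223 of 250 lay in the day 6 peaks. The day 6 list had the largest median width, so the narrower gap cannot be told apart from a property of that list.

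Inside Msi2, H3ac was listed away from the start on days 2 and 4 and not on day 6. The day 2 list had 5 such peaks, with scores from 50.35 to 87.73, and the day 4 list 2, with scores of 86.75 and 53.92. No base was shared between these internal peaks of the 2 days, while the day 2 peaks at and just beyond the start overlapped those of day 4. Of all day 2 peaks, 50.2% overlapped a day 4 peak. An internal day 2 peak ended at position 88585285 and an internal day 4 peak began close by, at 88585315. HDAC1 had 5 peaks inside Msi2, of 277 to 358 bp, with scores of 184.33 (rank 247 of 5286, percentile 95.3), 104.09, 73.99, 68.08 and 59.79. As many or more HDAC1 peaks were listed for 0.371% of the genes over 100 kb, though Msi2 is itself long for that class. None of the 5 overlapped H3ac of any day. Of all HDAC1 peaks, 27.7%, 25.7% and 16.5% overlapped H3ac of days 2, 4 and 6. The closest of the 5 stood 455 bp from a day 2 H3ac peak of score 83.10, and the strongest 60794 bp from the nearest one. The HDAC1 peak of score 68.08 lay in 0610039H22Rik, a long noncoding RNA gene inside Msi2.

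**Figure D2:**
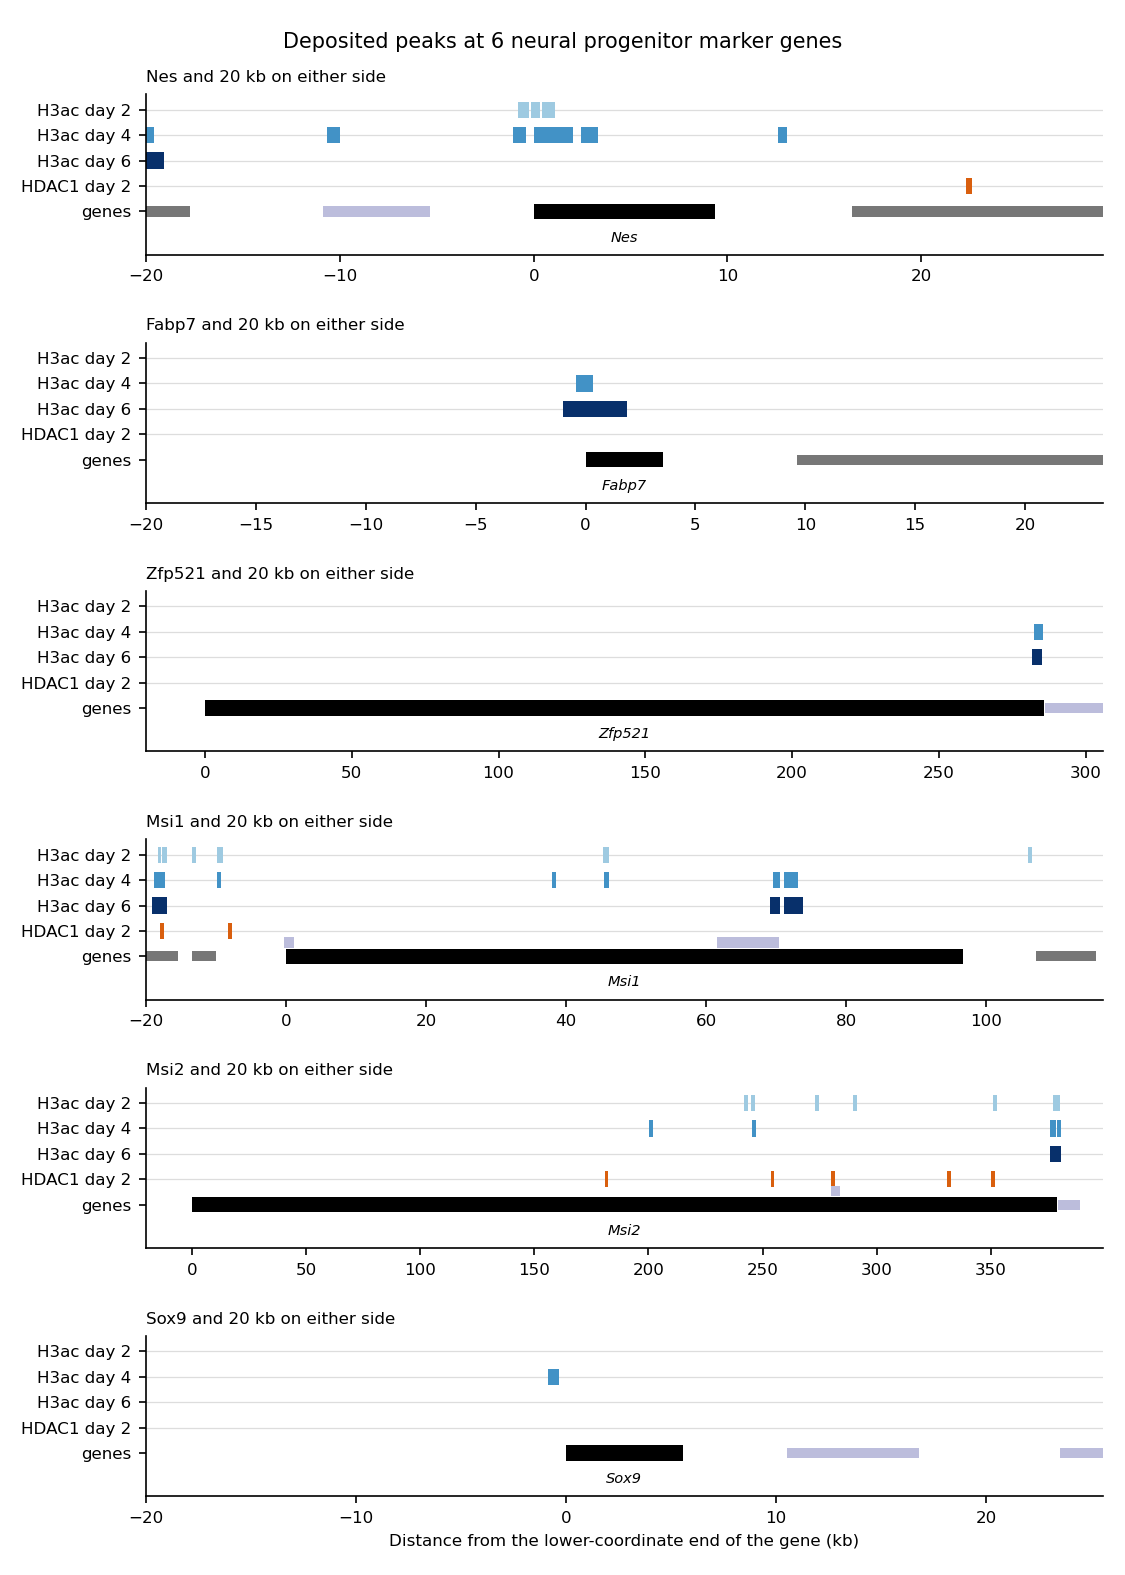
Every deposited peak in each gene and the 20 kb on either side, by distance from the lower-coordinate end (kb, a different scale in each panel), with the narrowest peaks drawn slightly wider than scale. Black bars are the members, grey bars other protein-coding genes and pale bars long noncoding RNA genes. HDAC1 bars fall inside Msi2 and at neighbours of Nes and Msi1, away from the starts of Nes and Msi2.

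Set side by side, the members had 16, 21 and 9 H3ac peaks on days 2, 4 and 6, and 8 HDAC1 peaks. Inside the genes lay 9, 13 and 5 of the H3ac peaks and 5 of the HDAC1 peaks. The median percentile of the members' peaks was 32.7, 41.6 and 54.0 for H3ac on days 2, 4 and 6 and 62.7 for HDAC1, where all peaks of a list have a median near 50 by construction. The day 2 H3ac peaks at these genes sat low in their list, and 5 of 16 scored above its median. On day 4, 9 of 21 did, on day 6, 5 of 9, and for HDAC1, 6 of 8.

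**Figure D3:**
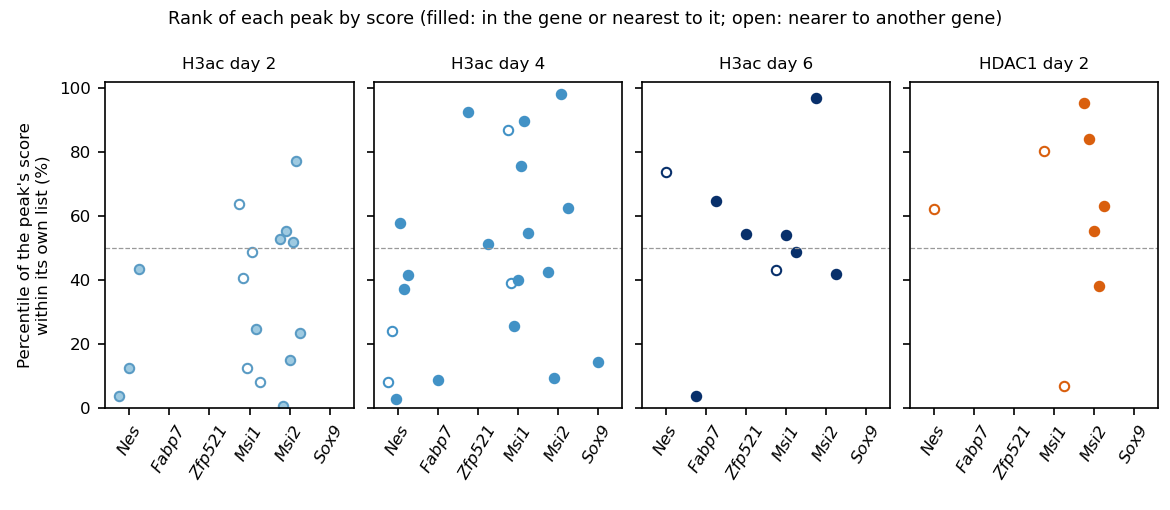
Percentile of each peak's score within its own list (vertical axis, %, 100% is the highest) for each member and list, with filled points for peaks in the gene or nearest to it and open points for peaks nearer to another gene. The dashed line is the list's middle. The highest points are those of Msi2 on days 4 and 6 and for HDAC1, and the day 6 point of Nes is open.

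Positions recurred unevenly between days. Of the 9 day 6 peaks at the members, 9 shared at least 1 bp with a peak of day 4, against 81.2% of all day 6 peaks (95% Wilson interval 80.1 to 82.2%). With day 2 peaks, 3 of the 9 overlapped, against 79.5% (78.5 to 80.6%) of all day 6 peaks. The windows of Fabp7, Zfp521 and Sox9 held no day 2 peak, so no day 4 or day 6 peak there could overlap one. Among the 9, this covers 2 peaks of Fabp7 and 1 of Zfp521. Of the 9, 1 was nearest to Crabp2, and 1 of the 3 that overlapped lay at Gatc and Triap1. Of the 21 day 4 peaks, 7 overlapped a day 2 peak, against 63.9% (63.0 to 64.7%) of all day 4 peaks, and 10 overlapped a day 6 peak, against 44.5% (43.6 to 45.4%). Of the 8 HDAC1 peaks, 1 overlapped a day 2 H3ac peak, the one at Gatc and Triap1, against 27.7% (26.5 to 28.9%) of all HDAC1 peaks. Intervals belong to the shares over all peaks and cover counting error only, and neighbouring peaks are not independent.

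Within 1 kb of a gene end, the members with an H3ac peak numbered 2, 5 and 3 on days 2, 4 and 6, against 40.6%, 38.0% and 23.3% of all genes. Msi2 was the member with such a peak on all 3 days. Nes had it on days 2 and 4, Fabp7 and Zfp521 on days 4 and 6, Sox9 on day 4, and Msi1 on no day. Gene ends here are those of the whole RefSeq span. A transcript start inside the span, such as one near the H3ac cluster inside Msi1, would not be counted, and whether one lies there was not tested. No member had an HDAC1 peak there, and 9.4% of all genes did. With the 5286 highest-scoring peaks of each list, the members with an H3ac peak at a gene end numbered 1, 1 and 3, so that day 4 no longer led. In these shortened lists, members with an H3ac peak anywhere in the window were 1, 3 and 5 on days 2, 4 and 6, while 35.6%, 36.0% and 34.7% of all genes had one.

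Other neural progenitor genes were read in the same windows, from a list of 24 that the members are not part of. Of these, 10, 16 and 7 had an H3ac peak on days 2, 4 and 6, and 4 had an HDAC1 peak. The shares of all protein-coding genes were 59.6%, 55.6% and 35.8% for H3ac and 27.1% for HDAC1. Without a day 2 H3ac peak were 14 genes, of which 8 carried H3ac in the day 4 list and 3 in the day 6 list. Among the 3 members without a day 2 peak, the numbers were 3 and 2, and among all 8847 such genes the shares were 13.3% and 5.34%. The shares were 34.8% and 14.4% for such genes over 100 kb, the class of Zfp521. They were 6.24% and 1.91% for those under 10 kb, the class of Fabp7 and Sox9. The members and lists were chosen with earlier results of these data known, so these numbers are not an independent comparison. The highest scores belonged to Sox2 (1122.54 on day 4), Prom1, for the progenitor surface protein prominin (620.62 on day 4), Pax6 (567.11 on day 4) and Cdh2, for N-cadherin (525.22 on day 4). Genes with no peak in any list included Sox3, Neurog2, Lhx2, Slc1a3 and Nr2e1. Lhx2 is a forebrain transcription factor, and Slc1a3 encodes a glutamate transporter of radial glia.

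Relatives and partners of the members, 15 genes, gave 11, 10 and 5 with H3ac on days 2, 4 and 6 and 6 with HDAC1. Over all protein-coding genes the shares were 59.6%, 55.6% and 35.8% for H3ac and 27.1% for HDAC1. Zfp423, the close relative of Zfp521, had H3ac on all 3 days (strongest scores 65.61, 263.40 and 534.36) and 3 HDAC1 peaks, the strongest of score 52.93. Syncrip, Hnrnpa2b1 and Dazap1, which encode RNA-binding proteins as Msi1 and Msi2 do, also had H3ac on all 3 days. Their strongest scores were 391.28 for Syncrip on day 6, 867.71 for Hnrnpa2b1 on day 4 and 786.52 for Dazap1 on day 2. Of the family of Fabp7, Fabp5 had 1 peak, of H3ac on day 4 (score 206.00), and Fabp1 and Fabp3 had no peak in any list.

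As a check on the labelled cells, all 8 pluripotency markers had H3ac in the window on day 2. The later lists of days 4 and 6 held 5 and 2 of them. Of all protein-coding genes, 59.6%, 55.6% and 35.8% had such a peak on days 2, 4 and 6. The strongest besides Sox2 were at Pou5f1 (1035.01), Utf1 (607.20) and Dppa4 (147.91), all on day 2. Klf4, Esrrb and Zfp42 had weak day 2 peaks, at percentiles 7.49, 12.1 and 29.4. Nanog and Sox2 had peaks in the window on all 3 days. Those of Nanog on days 4 and 6, at percentiles 32.6 and 11.7, were not at a gene end, while Sox2 had a gene-end peak on each day. Within 1 kb of a gene end, 6, 1 and 1 of the 8 had H3ac on days 2, 4 and 6. Of all protein-coding genes, 40.6%, 38.0% and 23.3% had such a peak. Of 12 markers of neurons and glia, 5, 4 and 1 had H3ac in the window. Within 1 kb of a gene end, 0, 1 and 0 of them did, against 40.6%, 38.0% and 23.3% of all protein-coding genes. The highest scores in the windows were at Gfap (361.19, day 2), Mbp (161.42, day 4), Rbfox3 (101.62, day 2) and Syp (76.00, day 2). Gfap, Rbfox3 and Syp had no H3ac peak at a gene end on any day. Genes with no peak in any list included Tubb3, Dcx and Olig2. Of 8 mesendoderm markers, 2, 1 and 0 had H3ac. The scores were 69.43 for Sox17 and 50.77 for Gata4 on day 2, and 53.14 for Foxa2 on day 4. T, Eomes, Mixl1, Gsc and Gata6 had no peak in any list.

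**Figure D4:**
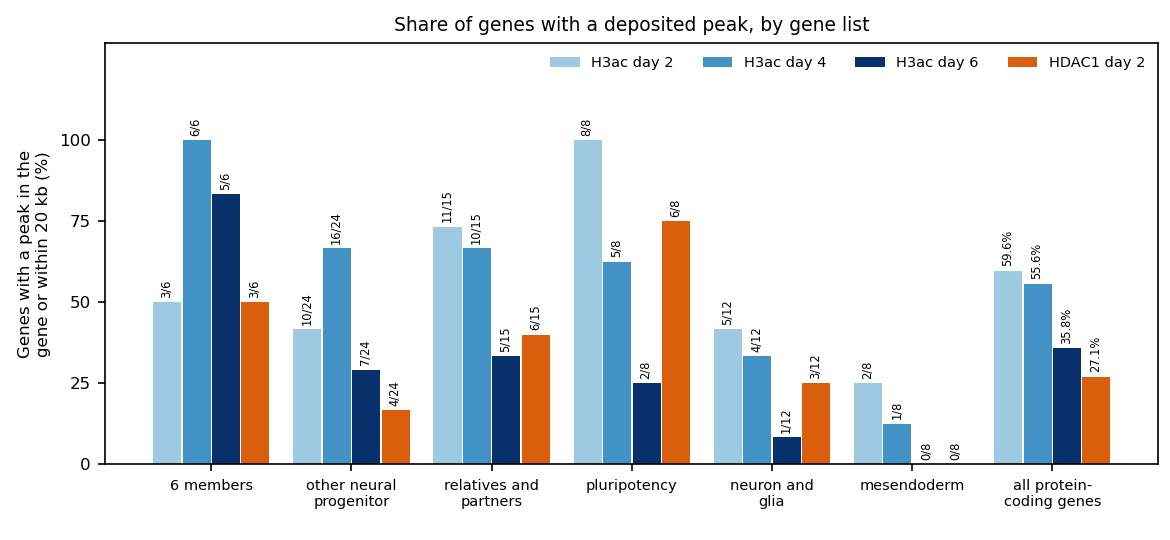
Share of genes with a peak in the gene or within 20 kb (vertical axis, %) for the 6 members, the comparison lists and all protein-coding genes, with bars for H3ac on days 2, 4 and 6 and for HDAC1 on day 2. Labels give the count of genes, or the percentage for all genes. The members reach 6 of 6 on day 4 and 5 of 6 on day 6, and the pluripotency list 8 of 8 on day 2.

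Genes of like pattern were sought for Nes, Fabp7 and Zfp521 by the percentile of the strongest peak in each of the 4 lists, with 0 for none, and the sum of the absolute differences as the measure. The nearest to Fabp7 were Heatr5a (sum 1.91 points), Spire1 (6.70) and Slc35d1 (7.78). The nearest to Zfp521 were Klhdc8a and Nuak2, neighbours with identical values (9.13), and Foxp4 (13.7). The nearest to Nes were Tmem245 (19.7), Zup1 (21.0) and Pdcd7 (21.2). The likeness for Nes rests in part on the day 6 peak near Crabp2 and the HDAC1 peak in Bcan.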

How the data were processed

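H3ac was measured in differentiating mouse embryonic stem cells on days 2, 4 and 6 and HDAC1 on day 2, with 1 library each. Libraries were grouped by the labels' titles, which give the day for H3ac and not for HDAC1. Reads were aligned with Bowtie 0.12.8 to mm10, per the submitters' processing notes. Each deposited peak list gives chromosome, start, end, name and a score. The deposited peak names begin with MACS, and the caller's version, threshold, use of the input libraries and the scale of the authors' score are not stated in the labels or files used here. The files give no depth.

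A RefSeq table (GRCm38.p6) gave gene spans without exons. Peaks overlapping a gene or its 20 kb flanks by at least 1 bp were counted with pandas 2.3.3 and numpy 2.4.6, and coordinates are 1-based. Wilson 95% intervals came from statsmodels 0.14.6. No test was run, for want of replicates. Counting was tested on simulated data with 200 genes. Alternatives changed the window, the score threshold, the list length, the overlap and the assignment to the nearest gene. All members were named, as were up to 4 genes per comparison list by highest H3ac score, those with no peak in any list, genes neighbouring a member, and 3 genes of like pattern. Some genes that this rule names are not reported here. Other genes named were chosen after their values were seen. The members and lists were chosen with earlier results of these data known.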

Additional observations from a re-analysis of the deposited data

How the results depend on the processing

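Without replicates, no library could be left out. Of 50 alternative values of the members' counts, 35 stayed within 1.5 times the main value and 15 did not, and the cause was not tested. With the same number of top-scoring peaks in each list, members with H3ac were 1, 3 and 5 on days 2, 4 and 6, against 3, 6 and 5. Their H3ac peaks were 1, 6 and 8, against 16, 21 and 9. With the higher-scoring 50% of each list, peaks at the members were 5, 9 and 5 on days 2, 4 and 6. Within the gene spans alone, they were 9, 13 and 5 for H3ac and 5 for HDAC1. There, 1 of the 6 members had HDAC1, against 13.8% of all protein-coding genes. Counting only peaks nearest to a member also left 1 member and 5 peaks for HDAC1, and no share over all genes was computed for that count. With a gap of up to 1 kb allowed, 3 of 8 HDAC1 peaks met a day 2 H3ac peak, against 1 by direct overlap. Requiring at least 50% of each peak inside the window, or widening the flanks to 50 kb, kept all 8 counts of members and peaks within 1.5 times. Alternatives for gene-end counts were added after the data were seen, and with list lengths made equal these counts were 1, 1 and 3 for H3ac in day order. Depth, unknown here, and 1 library for each target and day limit every comparison between days.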

Other observations

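Among the genes read for comparison, Rbfox3, which encodes the neuronal nuclear protein NeuN, had 7 HDAC1 peaks in its window, the strongest of score 1450.75, while its strongest H3ac scores were 101.62 on day 2 and 62.01 on day 4, with none on day 6. Snap25, for a synaptic vesicle fusion protein, had 1 HDAC1 peak of score 434.46 and no H3ac peak on any day. Both were chosen after their values were seen.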
